A study of Homo sapiens with 18 samples.

Results

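Interferon-stimulated genes are the genes that cells switch on when an interferon receptor signals. Here they were followed as a list of 45 symbols in colorectal cancer cells that received a RAF inhibitor or a hairpin against a kinase. Each gene was represented by 1 probe set, the one with the highest mean over all 18 arrays, in a table of log2 signals, where a difference of 1 is a 2-fold change. Of the 45 genes, 43 were measured in this way, among 18132 genes compared in all. STAT2 had no probe set of its own, and the only probe set of USP18 named several genes, so neither was analysed here.

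Both cell lines, WiDr and HT29, are established human colorectal adenocarcinoma lines with an activating BRAF mutation, and WiDr is thought to derive from HT29. There were 6 groups of 3 arrays: WiDr cells with vehicle, WiDr cells with AZ628, WiDr cells transduced with a control shRNA, WiDr cells transduced with an shRNA against IKKα, HT29 cells with vehicle and HT29 cells with AZ628. AZ628 is an inhibitor of RAF kinases, and IKKα, the product of CHUK, is a kinase best known from NF-κB signalling. Its dose and time, the hairpin sequences, the vector and whether the transduced cells also received vehicle are not given in the sources used here, and no HT29 cells received a hairpin. Whether a group's 3 arrays stem from separate cultures is not stated, so the p-values measure the spread between arrays, which may be technical.

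Type I and type III interferons bind their receptors and activate the kinases JAK1 and TYK2. These act through a complex with STAT2 and IRF9 that binds the interferon-stimulated response element (ISRE) in the promoters of its target genes. The targets include sensors of foreign RNA, the ubiquitin-like protein ISG15 with its conjugating enzymes, and proteins that block virus entry, replication or release. Several of them are made at a low level without any infection, and tumour cells differ in that level. Foreign RNA and DNA inside a cell are textbook triggers of interferon production.

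The promoters were searched for the core of the ISRE, the element that the complex with STAT2 and IRF9 binds. The windows below are from members whose signals the results turn on, with 6 bases on each side. They are read 5′ to 3′ along the strand of the match, with the core in capitals. For IFIH1, IFI6 and ISG15 only 1 of several matches is shown. Positions are those of the core's leftmost base, counted from the gene start as 0 in the RefSeq promoter table (build GRCh38.p14).
IFITM1, plus strand of the gene, position -40: cagcagGAAATAGAAActtaag
IFITM1, plus strand of the gene, position -6: ttctgaGAAACTGAAAcgacag
IFI27, minus strand of the gene, position -108: ttccagGAAACCGAAActgcag
IFI27, plus strand of the gene, position -95: ttcctgGAAAATGAAAcctatc
MX1, plus strand of the gene, position 11: agaaatGAAACCGAAActgaat
IFI44, minus strand of the gene, position -18: agaaagGAAACTGAAActcagt
IFIH1, plus strand of the gene, position -21: agaatcGAAACAGAAAccaaag
IFIT1, minus strand of the gene, position -116: aaagggGAAAGTGAAActaaag
IFIT1, minus strand of the gene, position -103: cctaggGAAACCGAAAggggaa
DDX60, plus strand of the gene, position -88: tgaaggGAAACTGAAAcctaag
DDX60, plus strand of the gene, position -53: agaaagGAAACCGAAActcccg
IFI6, plus strand of the gene, position -115: agagggGAAAATGAAActgcag
ISG15, plus strand of the gene, position -107: gaaaggGAAACCGAAActgaag

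The core searched was GAAA, any 2 bases and GAAA again, on both strands, over 250 bases before and 50 bases after the gene start. A promoter was held for 36 of the 45 members, and 23 of them (63.9%) contained the core, against 996 of the 27305 promoters of the table (3.65%), 1 per gene symbol. The longer form, with a C after the core, was in 20 of the 36 (55.6%) and in 0.798% of all promoters. The gamma-activated site TTCNNNGAA, which reads the same on both strands, was in 11 of the 36 (30.6%) and in 7.88% of all. A match is a run of letters and not a measured binding site, and a promoter without a match may still hold a related element. Those of OAS1, RSAD2 and XAF1 hold GAAA, 1 base and GAAA again, which the search did not count. IFI27 carried the core once on each strand within a short stretch. DDX60 and ISG15 carried it at 2 positions, and IFI6 and IFIH1 at 3.

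The 3 promoters below are those of IFITM1, IFI27 and UBE2L6, which are among the 4 members with the largest log2 difference between control shRNA and vehicle. IFITM1 and IFI27 have the core, and UBE2L6 has no match in this window. Each runs 5′ to 3′ along the gene's strand, from 250 bases before the start to 20 bases after it, with the core in capitals. The minus-strand match of IFI27 therefore appears as its reverse complement. IFITM1 lies at chr11:313790-314059 on the plus strand, IFI27 at chr14:94110486-94110755 on the plus strand and UBE2L6 at chr11:57567916-57568185 on the minus strand of GRCh38.p14.
IFITM1: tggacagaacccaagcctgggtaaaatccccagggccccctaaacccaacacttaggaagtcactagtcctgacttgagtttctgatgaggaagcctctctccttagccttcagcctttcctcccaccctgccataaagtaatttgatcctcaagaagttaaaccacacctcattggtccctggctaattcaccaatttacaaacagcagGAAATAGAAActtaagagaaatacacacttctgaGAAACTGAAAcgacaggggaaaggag
IFI27: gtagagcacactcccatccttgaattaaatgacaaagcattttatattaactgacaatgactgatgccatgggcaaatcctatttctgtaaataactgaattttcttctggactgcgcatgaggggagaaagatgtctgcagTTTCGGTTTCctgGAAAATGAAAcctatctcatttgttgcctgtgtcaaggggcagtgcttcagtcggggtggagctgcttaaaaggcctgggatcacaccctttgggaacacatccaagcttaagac
UBE2L6: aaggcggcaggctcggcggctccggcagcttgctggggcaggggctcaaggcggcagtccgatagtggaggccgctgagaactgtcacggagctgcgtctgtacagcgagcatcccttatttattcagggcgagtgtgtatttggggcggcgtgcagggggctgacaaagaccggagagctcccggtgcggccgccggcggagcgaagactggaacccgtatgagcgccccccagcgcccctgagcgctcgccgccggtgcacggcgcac

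Arrays of 1 group correlated between 0.997 and 0.999 over all genes, and arrays of different groups between 0.956 and 0.996. CHUK, the gene the hairpin targets, read 9.68, 9.45 and 9.78 with the control shRNA and 7.68, 7.23 and 7.65 with the IKKα shRNA, a log2 difference of -2.12 ± 0.12 (SE; limma adjusted p = 4.11e-10). Of 12 markers of colon epithelium, EPCAM, KRT8, KRT18 and KRT19 had group means of 13.2 to 14.4, while CDX1, CDX2, CDH17 and GPA33 lay between 4.91 and 7.07. Some epithelial markers moved with the groups. With the control shRNA 5 were higher and 0 lower than with vehicle. Between the hairpins 0 were higher and 5 lower (LGALS4 by -1.71). With AZ628, 5 were higher and 4 lower in WiDr (KRT20 by -1.22), and 5 and 3 in HT29. Over all genes the shares higher and lower were, in that order, 11.6% and 10.6%, 15.9% and 19%, 23.4% and 21.1%, and 22.5% and 21%. Of 9 measured leukocyte markers, PTPRC stayed between 3.10 and 3.31 in group means and LYZ between 13.6 and 14.1. Of these, 1 passed with the control shRNA against vehicle, CD14 at 0.71, which differed by -1.25 between the hairpins. Of 6 fibroblast markers, LUM had group means of 3.13 with vehicle, 3.49 with the control shRNA, 6.32 with the IKKα shRNA and 4.38 with AZ628 in WiDr, and 4.41 and 6.18 with vehicle and AZ628 in HT29. The other 5 stayed between 3.06 and 5.68. The part of other cells in the results below was not tested, and in such bulk RNA fewer cells of a type and less RNA per cell cannot be told apart.

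**Figure D1:**
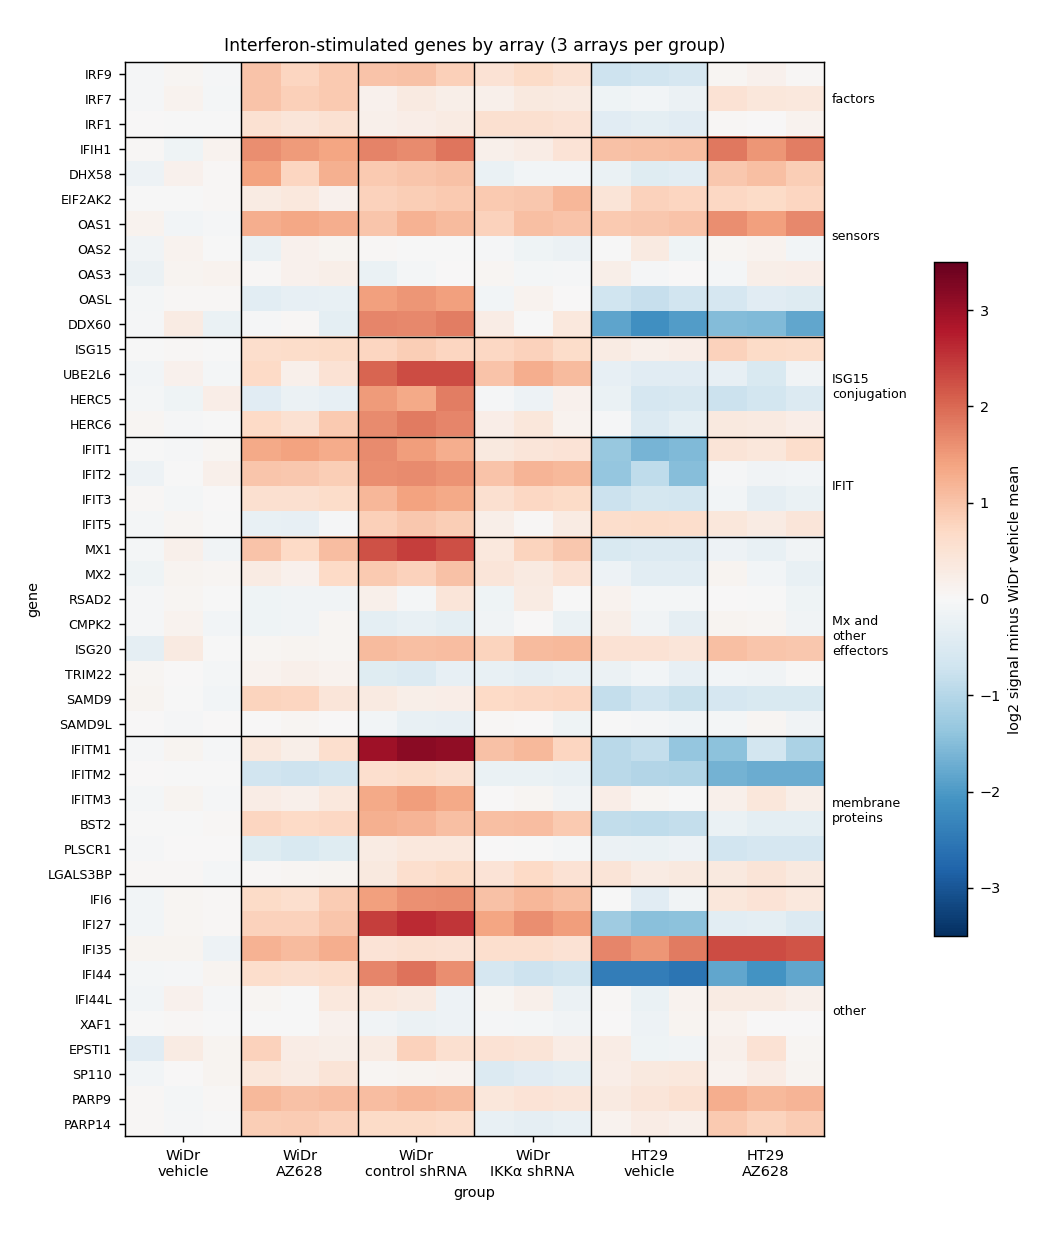
Log2 signal of the 43 measured genes on each of the 18 arrays, minus the mean of the 3 WiDr vehicle arrays, with genes in rows grouped by role and arrays in columns grouped by condition. The control shRNA arrays form the darkest red block, with medians over the genes of 0.91, 0.95 and 0.91, against 0.26, 0.33 and 0.36 on the IKKα shRNA arrays and 0.53, 0.29 and 0.51 on the WiDr AZ628 arrays.

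Every comparison below comes from 1 limma fit over all 6 groups, and a gene passed at a Benjamini-Hochberg adjusted p under 0.05 over the 18132 genes. The WiDr comparisons share arrays: the vehicle arrays and the control shRNA arrays each serve in several of them, so their values are set side by side and not tested for likeness.

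The largest shift of the list was between the 2 kinds of WiDr control. With the control shRNA, 34 of the 43 genes were higher than with vehicle, 3 were lower and 6 did not pass. Over all genes 11.6% were higher and 10.6% lower. The median log2 difference over the 43 was 0.91 (range -0.39 to 3.09), beside -0.04 over all genes. All 3 control shRNA arrays lay above all 3 vehicle arrays for 33 members, and 17.8% of all genes did so. Few genes differed far between these groups: 66 of the 18132 were at least 2-fold higher with the control shRNA and 5 at least 2-fold lower. Of those 66, 19 were on the list (28.8% of them, and 44.2% of the measured members). The hairpin, its vector, the transduction and any difference in vehicle come together in this comparison and cannot be told apart. In either direction, 0.392% of all genes passed the 2-fold limit.

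Among the membrane proteins, IFITM1, which blocks the fusion of enveloped viruses with the cell, had the largest difference of the list. Its log2 signal was 6.72, 6.86 and 6.73 with vehicle and 9.74, 9.94 and 9.88 with the control shRNA. The groups were far apart, with a log2 difference of 3.09 ± 0.17 (SE), or 8.49-fold (limma adjusted p = 2.89e-09). IFITM3, a relative that acts in endosomes, was higher by 1.37 ± 0.08 and IFITM2 by 0.60 ± 0.05. The 3 genes are related neighbours, and binding of 1 gene's RNA to another's probes was not tested. BST2, or tetherin, holds budding virus particles on the cell surface. It read 10.07, 10.05 and 10.10 with vehicle and 11.32, 11.26 and 11.13 with the control shRNA. LGALS3BP, a secreted galectin ligand, was higher by 0.53. All 6 membrane and secreted proteins of the list rose, with PLSCR1, a phospholipid scramblase, at 0.35 (0.13, not passing, with the probe set of largest variance).

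The members of ISG15 conjugation rose together, 4 of 4, with a median of 1.63. ISG15 is attached to other proteins by the enzymes UBE2L6, HERC5 and, in mice, HERC6. UBE2L6, the conjugating enzyme, read 4.16, 4.42 and 4.20 with vehicle and 6.29, 6.55 and 6.53 with the control shRNA, a difference of 2.20 ± 0.12 (adjusted p = 4.12e-09). HERC5, the ligase, read 3.58, 3.51 and 3.89 with vehicle and 5.14, 4.98 and 5.44 with the control shRNA. ISG15 itself moved less far, from 10.02, 10.07 and 10.02 to 10.80, 10.90 and 10.78. In each of these genes the groups did not overlap, and the differences were 1.53 for HERC5, 1.72 for HERC6 and 0.79 for ISG15.

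The 4 IFIT genes, whose products bind viral RNA and hold back its translation, also rose. The differences were 1.62 for IFIT2, 1.46 for IFIT1, 1.30 for IFIT3 and 0.88 for IFIT5. IFIT1 read 7.18, 7.15 and 7.25 with vehicle and 8.86, 8.65 and 8.46 with the control shRNA. Of the Mx GTPases, which trap viral nucleocapsids, MX1 went from 4.85, 5.12 and 4.81 to 7.16, 7.35 and 7.19, a difference of 2.31 ± 0.13. MX2 was higher by 0.91, and ISG20, an exonuclease that degrades RNA, by 1.08. Of that group of 8 effectors 4 rose and 3 fell. TRIM22 was lower, at -0.39 on the log2 scale (-0.15, not passing, with the probe set of largest variance), CMPK2 gave -0.32 (0.53 with the mean of its probe sets and 2.09 with the one of largest variance) and SAMD9L -0.21, and RSAD2, at 0.18, did not pass.

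Of the 8 sensors and sensing enzymes, 6 rose, with a median of 1.04. IFIH1 encodes MDA5, which detects long double-stranded RNA. It read 6.12, 5.91 and 6.19 with vehicle and 7.81, 7.73 and 7.94 with the control shRNA, a difference of 1.75 ± 0.10. DDX60, a helicase that promotes RNA sensing, was higher by 1.73, OASL by 1.47 and OAS1 by 1.10. DHX58, which encodes LGP2, the regulator of MDA5 and RIG-I, was higher by 0.98, and EIF2AK2, the kinase PKR, by 0.86. OAS2 and OAS3, which make the messenger that activates RNase L, gave 0.00 and -0.10 and did not pass. The 6 members of the list that did not pass lay between -0.18 and 0.18.

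The 3 measured transcription factors rose. IRF9, the DNA-binding part of the ISRE complex, was higher by 0.95 ± 0.07, from 7.27, 7.39 and 7.28 to 8.31, 8.34 and 8.15. IRF1 was higher by 0.23 (0.04, not passing, with the mean of its probe sets). IRF7, which drives the later wave of interferon genes, was higher by 0.22. Among the 10 other genes, 7 rose. IFI27, a mitochondrial protein much used as a marker of the response, went from 9.78, 9.97 and 9.92 to 12.30, 12.50 and 12.39, or 5.70-fold. IFI44 was higher by 1.75, IFI6 by 1.55, PARP9 by 1.12 and PARP14 by 0.66. The calls of 5 members, CMPK2, EPSTI1, IRF7, SAMD9 and SAMD9L, did not outlast the loss of 1 array. CMPK2 lost its call without any 1 of the 6 arrays (log2 -0.36 to -0.26). Without vehicle replicate 3, EPSTI1 gave 0.60, IRF7 0.19, SAMD9 0.21 and SAMD9L -0.20, none of which passed. The same holds without control shRNA replicate 3, where they gave 0.54, 0.24, 0.26 and -0.18. Vehicle replicate 1 ended the calls of EPSTI1 (0.36), IRF7 (0.20) and SAMD9L (-0.20) too, vehicle replicate 2 those of SAMD9 (0.25) and SAMD9L (-0.23), control shRNA replicate 1 that of SAMD9 (0.22), and control shRNA replicate 2 those of EPSTI1 (0.42), IRF7 (0.17) and SAMD9L (-0.18).

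**Figure D2:**
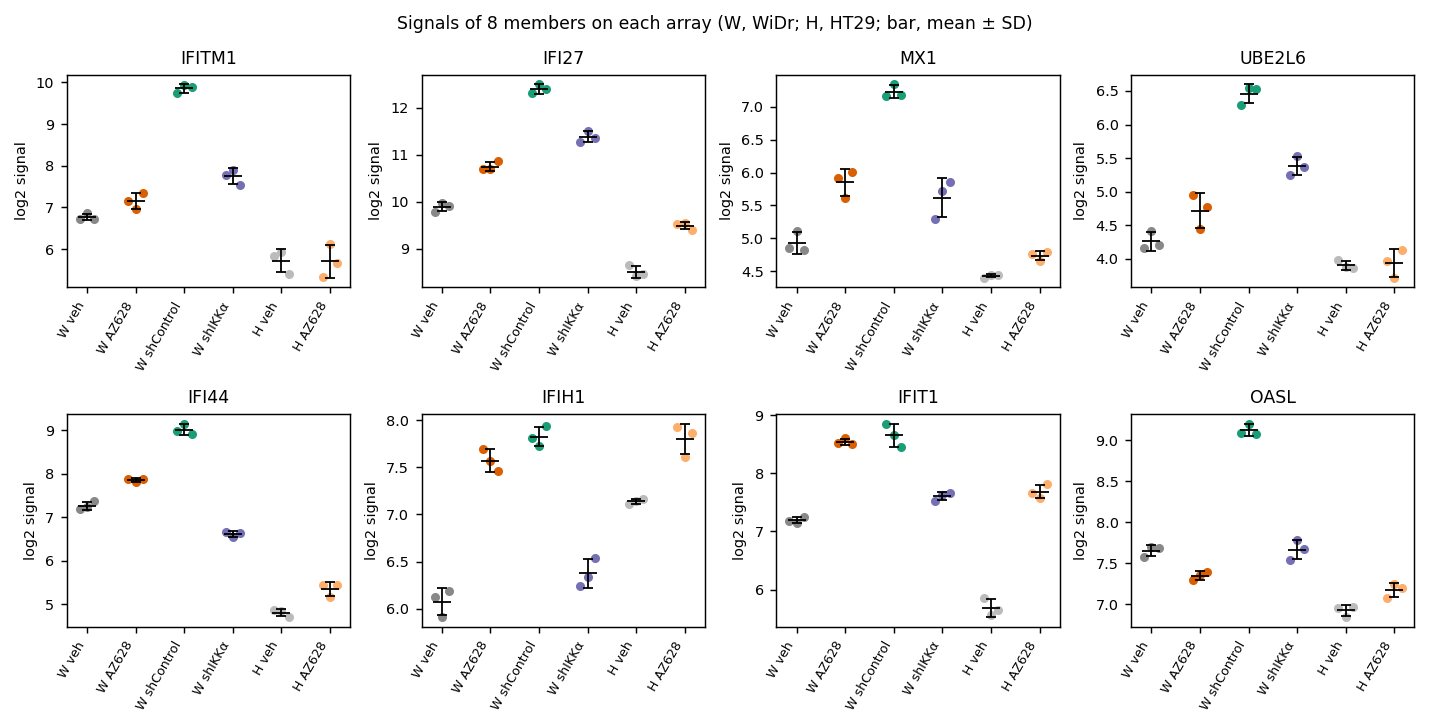
Log2 signal of IFITM1, IFI27, MX1, UBE2L6, IFI44, IFIH1, IFIT1 and OASL on every array, with 1 point per array and bars for the mean ± SD of the 3 arrays of a group. In IFITM1, IFI27, MX1, UBE2L6, IFI44 and OASL the 3 control shRNA arrays lie above all other arrays, while IFIT1 with AZ628 in WiDr reaches 8.61, within the control shRNA range of 8.46 to 8.86.

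Read beside the promoters, the 23 members with the core had a median difference of 1.17 between control shRNA and vehicle, with 21 higher and 0 lower. The 12 measured members whose promoter had no match had a median of 0.37, with 7 higher and 2 lower, and the 8 measured members without a promoter sequence had 0.75, with 6 higher and 1 lower. OAS3 and IFI44L had the core and did not pass, at -0.10 and 0.17. UBE2L6 had no match and rose by 2.20. In the comparison of AZ628 with vehicle in WiDr the medians were 0.42 with the core and 0.48 without it. These splits were not tested, and the members without a match include OAS1, RSAD2 and XAF1, which hold the repeat with 1 base between.

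**Figure D3:**
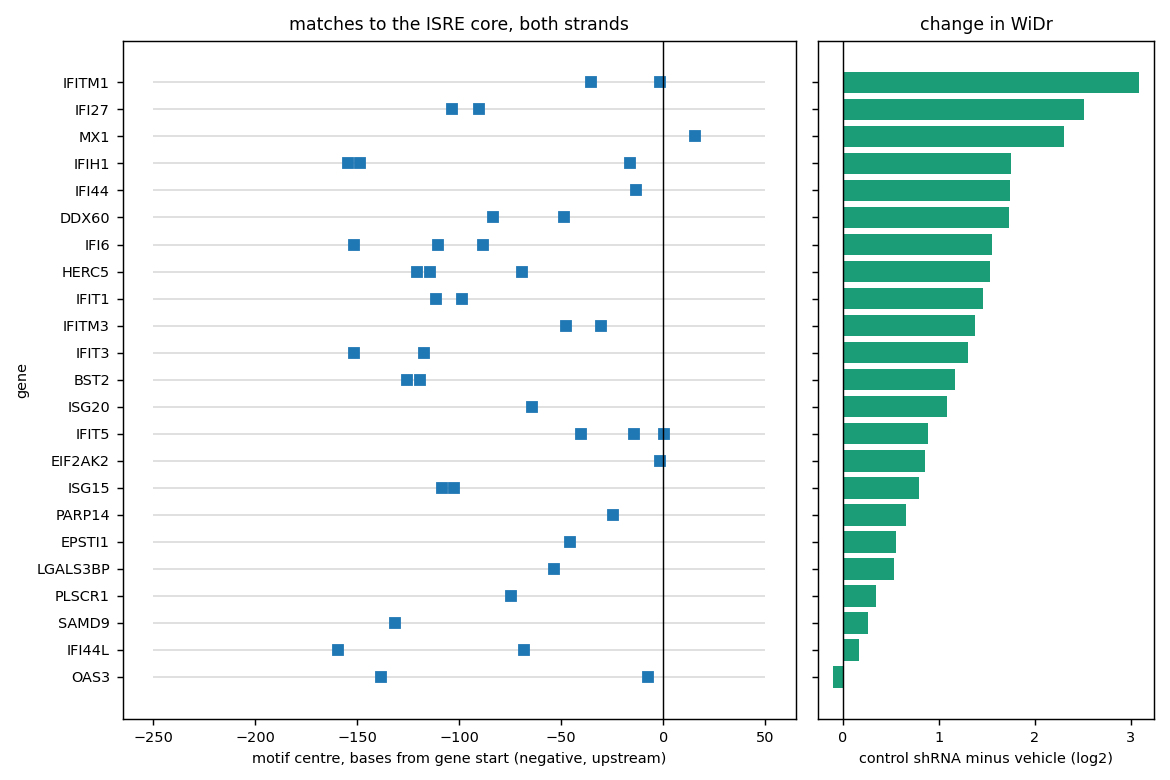
Left, centre of each match to the ISRE core, in bases from the gene start, for the 23 members with a match; right, the log2 difference between control shRNA and vehicle in WiDr for the same genes. Genes with a match lie between -0.10 (OAS3) and 3.09 (IFITM1).

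The hairpin against IKKα was set against both controls, and the direction depended on which was used. Against the control shRNA, 24 of the 43 members were lower, 2 were higher and 17 did not pass, with a median log2 difference of -0.47 (range -2.40 to 0.47). Over all genes 19% were lower and 15.9% higher, with a median of 0.02. Against vehicle the count turned: 22 members were higher, 5 lower and 16 did not pass, with a median of 0.30 (range -0.65 to 1.49), beside 16.4% and 19.8% of all genes and a median of -0.06. The members that did not pass lay between -0.15 and 0.21 in the former comparison and between -0.14 and 0.40 in the latter. At least 2-fold, 13 members were lower against the control shRNA (3.77% of all genes passed that limit in either direction) and 7 were higher against vehicle (2.84%). The arrays lay apart, all lower than the control shRNA, for 25 members and 23.4% of all genes, and all higher than vehicle for 23 members and 20.2% of all genes. The comparison with vehicle also moves with scaling. Centred on the signal of housekeeping genes, which shifts the median of all genes by -0.34, 17 members were higher and 16 lower. With that centring 83.3% of all genes passed. It takes the middle signal of 10 genes on each array, so it rests on the few genes nearest that middle. The median change of the 10 genes themselves was -0.03 in this comparison. Centred on the median deviation of the same genes, which shifts it by -0.05, 22 were higher and 5 lower. Quantile normalization gave 25 and 5.

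The shares of all genes with the orders and patterns counted from here on were not worked out, so the counts describe the list only. In 23 of the 43 members the group means rose in the order vehicle, IKKα shRNA, control shRNA. On both sides 12 passed, lower than the control shRNA and higher than vehicle. These 12 were IRF9, IFIH1, UBE2L6, IFIT1, IFIT2, IFIT3, MX1, MX2, IFITM1, IFI6, IFI27 and PARP9. IFITM1 read 7.78, 7.91 and 7.53 with the IKKα shRNA, between the 6.72 to 6.86 of vehicle and the 9.74 to 9.94 of the control shRNA. The differences were -2.11 ± 0.17 (adjusted p = 1.63e-08) against the control shRNA and 0.97 ± 0.17 (adjusted p = 0.000149) against vehicle. IFI27 read 11.28, 11.51 and 11.35, again between both controls, with differences of -1.02 and 1.49.

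UBE2L6 at 5.25, 5.53 and 5.37 and MX1 at 5.29, 5.71 and 5.86 lay in the same middle position. The differences were -1.07 and 1.12 for UBE2L6 and -1.61 and 0.69 for MX1. IFIT2 gave -0.52 and 1.10, IFIT3 -0.65 and 0.65, and IFI6 -0.47 and 1.08. For some members the rise over vehicle was small and rested on the setting. IFIH1, at 6.24, 6.34 and 6.54, gave -1.45 against the control shRNA and was higher than vehicle by 0.30, which fell short without vehicle replicate 2 (0.22) or IKKα shRNA replicate 3 (0.21) and was -0.04 after centring on housekeeping genes. IFIT1 gave 0.41, and 0.07 with that centring; PARP9 gave 0.42, and 0.08 with it. MX2 gave 0.41, which fell short without vehicle replicate 1 (0.33) or IKKα shRNA replicate 3 (0.36), and its -0.50 against the control shRNA did not pass with the mean of its probe sets (-0.21).

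Another 8 members were lower than the control shRNA and did not pass against vehicle: DHX58, OASL, DDX60, HERC5, HERC6, IFIT5, IFITM3 and PLSCR1. OASL, a relative of the OAS enzymes without their activity, read 7.57, 7.70 and 7.68 with vehicle, 9.09, 9.20 and 9.08 with the control shRNA and 7.54, 7.78 and 7.67 with the IKKα shRNA. The vehicle and IKKα shRNA arrays overlapped, and the differences were -1.46 ± 0.07 against the control shRNA (adjusted p = 2.85e-11) and 0.02 ± 0.07 against vehicle. HERC5 behaved likewise, at 3.61, 3.48 and 3.81 with the IKKα shRNA, with -1.55 and -0.03. Its mean signal stood at percentile 10.8 of all genes, near the lower end, where a difference from vehicle may not show. DDX60 gave -1.52 and 0.21, HERC6 -1.47 and 0.26, IFITM3 -1.38 and -0.01, and DHX58 -1.12 and -0.14. HERC6 passed against vehicle without IKKα shRNA replicate 3 (0.32) and IFIT5, at 0.18 over all arrays, without IKKα shRNA replicate 2 (0.25).

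Only 4 members were lower than both controls, IFI44, IFITM2, PARP14 and SP110. IFI44, a protein of little known function, had the largest fall of the list against the control shRNA. It read 7.19, 7.24 and 7.37 with vehicle, 8.98, 9.15 and 8.90 with the control shRNA and 6.67, 6.54 and 6.63 with the IKKα shRNA. The groups did not overlap, with differences of -2.40 ± 0.08 (adjusted p = 3.36e-13) and -0.65 ± 0.08 (adjusted p = 5.83e-06). The fall against vehicle belonged to this probe set: the gene's probe sets ranged from -0.65 to 0.58 there, and their mean gave 0.06. IFITM2 read 11.41, 11.39 and 11.38 with vehicle, 11.98, 12.03 and 11.96 with the control shRNA and 11.18, 11.17 and 11.14 with the IKKα shRNA, with differences of -0.83 and -0.23. SP110, a nuclear body protein, gave -0.50 and -0.40. TRIM22 was lower than vehicle only, at -0.27 (-0.11, not passing, with the mean of its probe sets). PARP14 gave -0.93 and -0.28, and the latter did not pass with the mean of its probe sets (-0.08).

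IRF1 and SAMD9 went the other way and were higher than both controls. SAMD9, which restricts poxviruses, read 9.31, 9.20 and 9.13 with vehicle, 9.53, 9.42 and 9.46 with the control shRNA and 9.91, 9.94 and 9.96 with the IKKα shRNA, with differences of 0.47 and 0.73. IRF1 gave 0.31 and 0.54, and the former did not pass after centring on housekeeping genes (0.05). In 8 members the IKKα shRNA did not pass against the control shRNA and was higher than vehicle: IRF7, EIF2AK2, OAS1, ISG15, ISG20, BST2, LGALS3BP and IFI35. ISG15 read 10.75, 10.85 and 10.69 with the IKKα shRNA, overlapping the control shRNA arrays, with differences of -0.07 and 0.73. BST2 gave -0.14 and 1.02, and -0.20 against the control shRNA without its replicate 3, which passed. EIF2AK2 gave 0.16 and 1.02, ISG20 -0.07 and 1.01, OAS1 -0.15 and 0.95 and IFI35 0.04 and 0.56. IRF7 gave 0.05 and 0.28, and the latter was -0.06 after centring on housekeeping genes. Among members that did not pass against the control shRNA, SAMD9L, at 0.18, passed without control shRNA replicate 1 (0.24) or IKKα shRNA replicate 3 (0.24), and TRIM22, at 0.12, without control shRNA replicate 3 (0.18).

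By role, the falls against the control shRNA took in 4 of 4 IFIT genes, 3 of 4 genes of ISG15 conjugation, 4 of 6 membrane and secreted proteins, 4 of 8 sensors, 6 of 10 other genes, 2 of 8 effectors and 1 of 3 factors. The 2 rises were SAMD9 among the effectors and IRF1 among the factors.

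**Figure D4:**
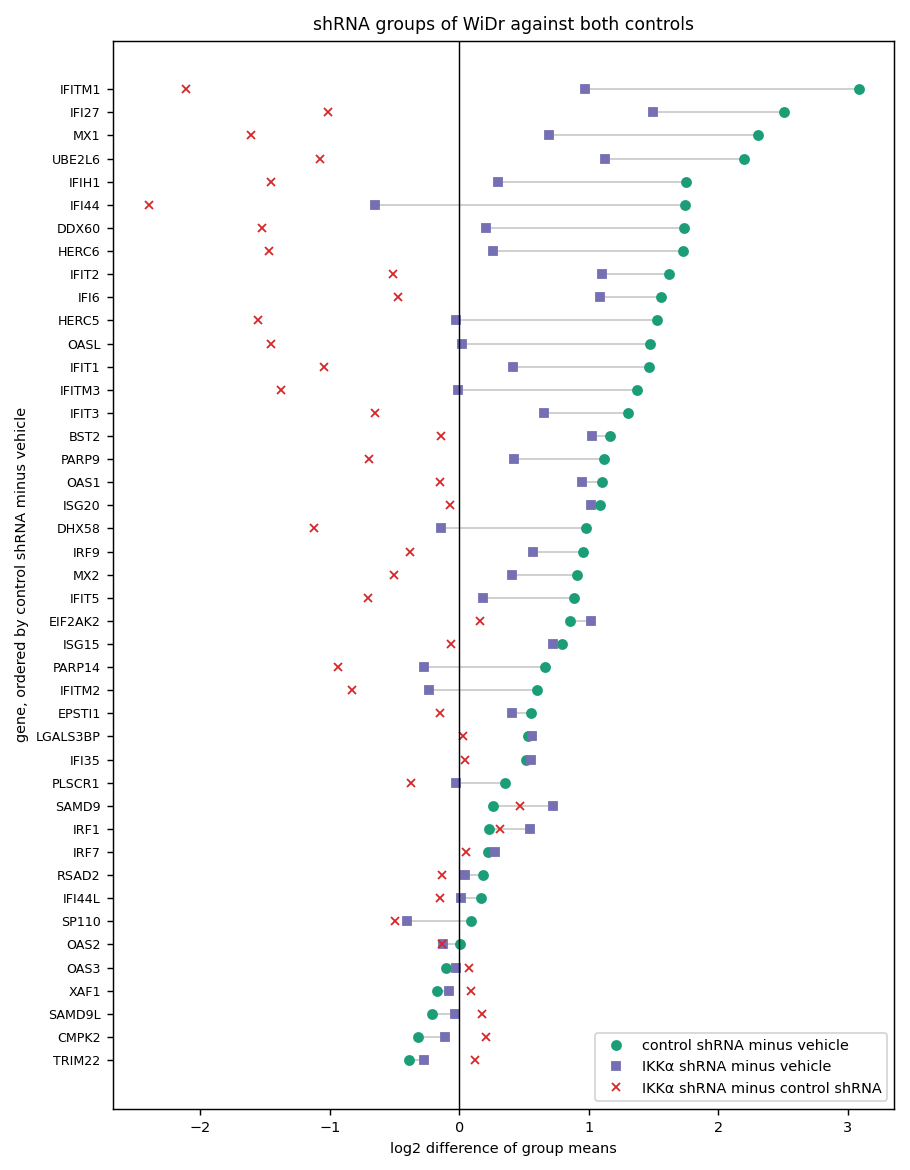
Log2 difference of group means in WiDr for the 43 genes, ordered by control shRNA minus vehicle: control shRNA minus vehicle (circles), IKKα shRNA minus vehicle (squares) and IKKα shRNA minus control shRNA (crosses). In 23 genes the square lies to the right of 0 and to the left of the circle. IFI44 has the leftmost cross at -2.40 and a square at -0.65.

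With AZ628 the list shifted upward in both lines. In WiDr, 25 of the 43 members were higher than with vehicle, 3 were lower and 15 did not pass, with a median of 0.42 (range -0.68 to 1.5), beside 23.4% higher and 21.1% lower of all genes and a median of 0.00. In HT29, 22 were higher, 3 lower and 18 did not pass, with a median of 0.28 (range -0.70 to 2.0), beside 22.5% and 21% and a median of 0.00. At least 2-fold, 6 members were higher in WiDr (8.68% of all genes passed that limit in either direction) and 3 in HT29 (7.25%), and 0 were lower in either. All 3 AZ628 arrays lay above all 3 vehicle arrays for 27 members in WiDr, beside 26.5% of all genes, and for 24 in HT29, beside 25.6%. The members that did not pass lay between -0.29 and 0.42 in WiDr and between -0.17 and 0.31 in HT29. Centring on housekeeping genes shifts the median of all genes by 0.42 in WiDr and 0.32 in HT29. The 10 housekeeping genes themselves had median changes of only -0.08 and -0.15, so values with that centring rest on the few genes nearest their middle signal.

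IFIT1 rose in both lines. It read 8.52, 8.61 and 8.51 with AZ628 in WiDr, and went from 5.86, 5.56 and 5.64 to 7.66, 7.58 and 7.82 in HT29. In WiDr the difference was 1.35 ± 0.09 (adjusted p = 1.48e-09). It was larger in HT29, at 2.0 ± 0.09 (adjusted p = 1.09e-11), or 4.0-fold. IFIT2 gave 0.93 and 1.16, and IFIT3 0.59 and 0.46. IFIT5 fell by 0.25 on the log2 scale in HT29, which did not pass without AZ628 replicate 2 (-0.21) or with the mean of its probe sets (-0.11) and was 0.07 after centring on housekeeping genes. In WiDr IFIT5, at -0.19, passed only without AZ628 replicate 3 (-0.26) or vehicle replicate 1 (-0.22) among the fits that left out 1 array.

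Among the sensors, IFIH1 had the largest rise of the list in WiDr, from 6.12, 5.91 and 6.19 to 7.70, 7.56 and 7.46, a difference of 1.5 ± 0.10. In HT29 it went from 7.11, 7.14 and 7.16 to 7.93, 7.61 and 7.86, or 0.66 ± 0.10. OAS1 gave 1.30 in WiDr and 0.62 in HT29. DHX58 read 5.56, 5.89 and 5.79 with vehicle and 7.14, 6.5 and 7.0 with AZ628 in WiDr, and 5.51, 5.33 and 5.37 and then 6.68, 6.81 and 6.61 in HT29. The groups did not overlap in either line, with differences of 1.14 and 1.30. OASL passed with opposite signs, at -0.30 in WiDr (0.12 after centring on housekeeping genes) and 0.25 in HT29. EIF2AK2 was higher by 0.26 in WiDr, which did not pass without AZ628 replicate 1 (0.25) or 2 (0.21) or vehicle replicate 1 (0.25) or 2 (0.25). DDX60 gave -0.12 in WiDr, not passing, and was higher by 0.36 in HT29, which did not pass without AZ628 replicate 1 (0.30) or 2 (0.32) or vehicle replicate 2 (0.28) or 3 (0.37).

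All 3 transcription factors rose in both lines: IRF9 by 0.88 and 0.75, IRF7 by 0.92 and 0.58, and IRF1 by 0.50 and 0.44. IRF9 read 8.30, 8.05 and 8.24 with AZ628 in WiDr, near its control shRNA arrays, and 7.38, 7.47 and 7.34 in HT29 against 6.58, 6.63 and 6.72 with vehicle. IFI35, a leucine zipper protein, went from 6.80, 6.80 and 6.53 to 7.93, 7.83 and 7.98 in WiDr and from 8.43, 8.25 and 8.52 to 9.0, 8.99 and 8.92 in HT29. These were rises of 1.20 and 0.57. PARP9 gave 1.08 and 0.77, PARP14 0.85 and 0.67, IFI27 0.86 and 0.98, IFI6 0.71 and 0.59, BST2 0.73 and 0.55, HERC6 0.72 and 0.59, ISG15 0.64 and 0.46, and IFI44 0.59 and 0.55 (0.29, not passing in HT29, with the probe set of largest variance). These members rose in both lines. MX1 was higher by 0.92 in WiDr, from 4.85, 5.12 and 4.81 to 5.92, 5.62 and 6.01, and gave 0.31 in HT29 (adjusted p = 0.0582). ISG20 was higher in HT29, by 0.51, and gave 0.08 in WiDr, and UBE2L6 was higher in WiDr, by 0.46, and gave 0.04 in HT29. SAMD9 was higher by 0.66 in WiDr, and by 0.21 in HT29, where the call was lost without AZ628 replicate 1 (0.22), 2 (0.20) or 3 (0.19) or vehicle replicate 1 (0.17) or 3 (0.20).

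The membrane proteins split. IFITM2 fell in both lines, from 11.41, 11.39 and 11.38 to 10.72, 10.68 and 10.74 in WiDr and from 10.46, 10.36 and 10.33 to 9.75, 9.65 and 9.67 in HT29. The differences were -0.68 ± 0.05 and -0.70 ± 0.05. PLSCR1 fell too, by 0.47 on the log2 scale in WiDr and by 0.41 in HT29, and neither passed after centring on housekeeping genes (-0.05 and -0.09). IFITM1 gave 0.39 ± 0.17 in WiDr (adjusted p = 0.068; 0.48, which passed, without AZ628 replicate 2) and -0.01 in HT29. IFITM3 gave 0.27 in WiDr, which did not pass without AZ628 replicate 3 (0.22), and 0.16 in HT29, which passed without vehicle replicate 1 (0.22). MX2 gave 0.38 in WiDr, which did not pass without AZ628 replicate 3 (0.22), without vehicle replicate 1 (0.30) or with the mean of its probe sets (0.21). EPSTI1, at 0.42 in WiDr, passed without vehicle replicate 2 (0.57).

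**Figure D5:**
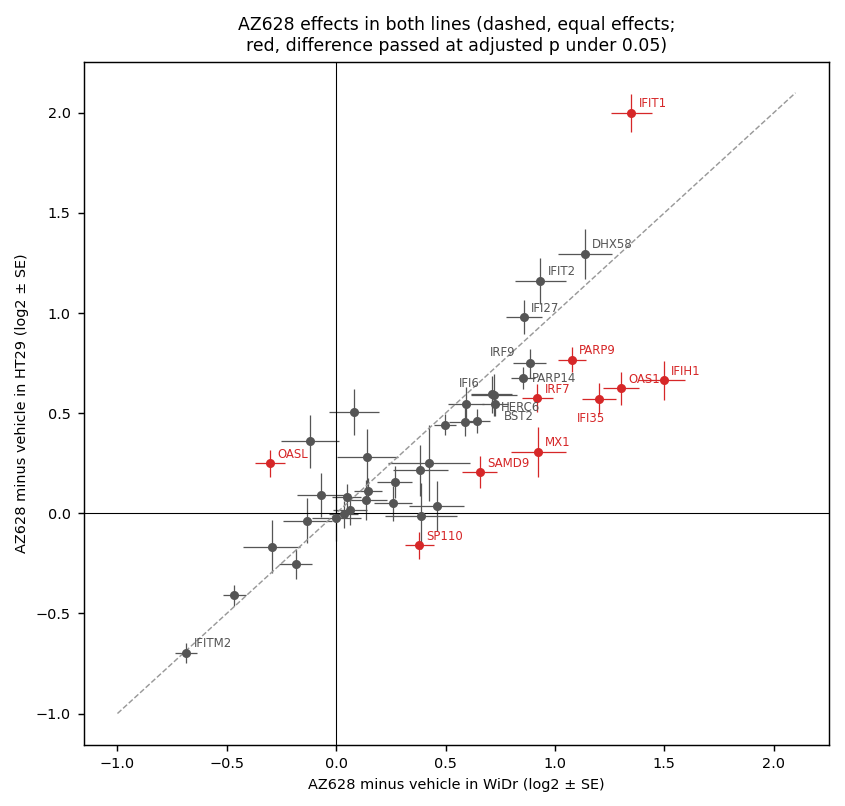
Log2 difference between AZ628 and vehicle in WiDr (horizontal) and HT29 (vertical) for the 43 genes, with bars of 1 SE; red points are the 10 genes whose 2 differences differed at an adjusted p under 0.05. IFIT1 lies above the line of equal effects, at 1.35 and 2.0, and IFIH1 below it, at 1.5 and 0.66.

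The AZ628 effect differed between the lines for 10 of the 43 members by the test of the difference itself, 2 larger in HT29 and 8 larger in WiDr. The other 33 lay between -0.42 and 0.48. Over all genes 9.19% passed that test, 4.06% with the higher value in HT29 and 5.13% with the lower. None of the 10 reached a 2-fold difference, which 0.965% of all genes did. IFIT1 (0.65 ± 0.13, HT29 minus WiDr) and OASL (0.55 ± 0.10) had the higher value in HT29. IFIH1 (-0.83 ± 0.14), OAS1 (-0.68 ± 0.12), IFI35 (-0.63 ± 0.11) and SP110 (-0.54 ± 0.09) had the lower. SP110 read 7.82, 7.72 and 7.88 with AZ628 against 7.32, 7.43 and 7.52 with vehicle in WiDr, and 7.56, 7.68 and 7.51 against 7.67, 7.76 and 7.80 in HT29. Its differences were 0.38 and -0.16, the latter not passing, though it passed without AZ628 replicate 2 (-0.21) or vehicle replicate 1 (-0.20).

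The other 4 differences were less firm. The count of 10 was 6 without WiDr AZ628 replicate 1 and 6 without WiDr vehicle replicate 3. Without those arrays in turn, MX1 gave -0.58 and -0.56, SAMD9 -0.39 and -0.41, IRF7 -0.30 and -0.31, and PARP9 -0.28 and -0.33, none of which passed. MX1 (-0.62 over all arrays) also lost its call without WiDr AZ628 replicate 3, WiDr vehicle replicate 1 or any 1 of the 6 HT29 arrays (-0.64 to -0.54 over the 10 such fits). IRF7 lost it in 8 of the 12 fits (-0.34 to -0.30), PARP9 in 8 (-0.33 to -0.25) and SAMD9 in 3 (-0.41 to -0.39). IFIT2, ISG20 and UBE2L6, which did not pass, did so without HT29 vehicle replicate 2 (0.41), WiDr vehicle replicate 1 (0.57) and WiDr AZ628 replicate 2 (-0.56).

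Against the other WiDr control the AZ628 arrays stood differently, a comparison added after the data were examined. Set against the control shRNA, 24 members were lower with AZ628, 9 higher and 10 did not pass, with a median of -0.31 (range -2.70 to 0.70). Of all genes 23.2% were lower and 32.2% higher, with a median of 0.10. At least 2-fold, 13 members were lower and 0 higher, beside 9.16% of all genes in either direction. Centring on housekeeping genes, which shifts that median by 0.49, gave 20 higher and 16 lower; centring on the median deviation of those genes, which shifts it by 0.14, gave 13 and 21. The lowest values were those of IFITM1 at -2.70, DDX60 at -1.85, HERC5 at -1.82, OASL at -1.78 and UBE2L6 at -1.74. IFI27 followed at -1.65, MX1 at -1.38, IFITM2 at -1.28, IFI44 at -1.15 and IFITM3 at -1.11. DDX60 read 6.48, 6.58 and 6.18 with AZ628, overlapping the 6.49, 6.81 and 6.30 of vehicle, and 8.25, 8.22 and 8.32 with the control shRNA. IRF7, IFI35 and TRIM22 were higher, by 0.70, 0.69 and 0.54 (0.19, not passing, for TRIM22 with the probe set of largest variance). SAMD9 gave 0.40, SP110 0.29, IRF1 0.27 and SAMD9L 0.24. PARP14 gave 0.19, which was -0.09 with the mean of its probe sets, and XAF1 gave 0.22, which was -0.05 with that mean and did not pass without AZ628 replicate 3 (0.17).

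For 10 members AZ628 did not pass against the control shRNA (-0.13 to 0.25), which does not show equal levels. IFIT1 gave -0.11 ± 0.09 (adjusted p = 0.327), PARP9 -0.04 ± 0.06 (adjusted p = 0.594) and IRF9 -0.07 ± 0.07 (adjusted p = 0.462), and after centring on housekeeping genes they were 0.38, 0.45 and 0.42. In 25 of the 43 members the control shRNA group was the highest of the 6, and the share of all genes was not worked out.

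The 2 lines also differed with vehicle alone. In HT29 with vehicle 20 of the 43 members were lower than in WiDr with vehicle, 11 were higher and 12 did not pass, with a median of -0.18 (range -2.46 to 1.69). Over all genes 15.3% were lower and 16.9% higher, with a median of -0.01; after centring on housekeeping genes 23 were lower and 7 higher. At least 2-fold, 7 were lower and 2 higher, beside 2.69% of all genes in either direction. In 20 members the HT29 vehicle group had the lowest of the 6 means, and the share of all genes was not worked out. IFI44 read 4.86, 4.84 and 4.71 in HT29, far below its WiDr vehicle arrays, a difference of -2.46 ± 0.08 (adjusted p = 4.03e-13). DDX60 gave -1.99, IFIT1 -1.51, IFI27 -1.38, IFIT2 -1.24, IFITM1 -1.05 and IFITM2 -1.01. BST2 gave -0.85 and SAMD9 -0.75. The 12 members that did not pass lay between -0.30 and 0.10.

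A smaller group was higher in HT29. IFI35 was higher by 1.69 ± 0.08, or 3.22-fold, and its 3 HT29 vehicle arrays lay above all 3 WiDr vehicle arrays. IFIH1 was higher by 1.06, OAS1 by 0.96, EIF2AK2 by 0.67 and IFIT5 by 0.62. ISG20 gave 0.48, PARP9 0.43, LGALS3BP 0.36, SP110 0.32 and ISG15 0.24, and the last 3 did not pass after centring on housekeeping genes (0.20, 0.16 and 0.08). Sensors stood on both sides, with DDX60 at -1.99 and OASL at -0.73. The small differences of DHX58 (-0.34), HERC6 (-0.29), UBE2L6 (-0.35), HERC5 (-0.46), PARP14 (0.19) and TRIM22 (-0.19) lost their calls without WiDr vehicle replicate 2 (-0.27, -0.32, -0.28, 0.17 and -0.19, HERC5 excepted) or HT29 vehicle replicate 2 (-0.30, -0.20, -0.34, -0.40 and 0.15, TRIM22 excepted). WiDr vehicle replicate 3 did the same to DHX58 (-0.32), HERC5 (-0.34), HERC6 (-0.30) and UBE2L6 (-0.38), WiDr vehicle replicate 1 to HERC6 (-0.26) and TRIM22 (-0.16), HT29 vehicle replicate 1 to TRIM22 (-0.19), and HT29 vehicle replicate 3 to DHX58 (-0.33), HERC6 (-0.26), UBE2L6 (-0.33) and TRIM22 (-0.15). MX2, at -0.30, passed without WiDr vehicle replicate 1 (-0.38).

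For a few members the chosen probe set and a dimmer one of the same gene disagreed. CMPK2, a mitochondrial nucleotide kinase that neighbours RSAD2, gave -0.32 for control shRNA against vehicle with its brightest probe set and 2.09 with a dimmer one. The same 2 probe sets gave 0.21 and -2.24 for IKKα shRNA against control shRNA. RSAD2, the antiviral enzyme viperin, gave 0.18 with its brighter probe set and 1.26 with the other, and -0.14 and -1.10 in the comparison of the hairpins. OAS2 gave 0.00 with its brightest and 1.34 and 0.89 with others of its 5, and -0.13, -1.19 and -0.40 between the hairpins. PLSCR1 had 1 probe set of 6 that went the other way between the hairpins, at 1.01, while the others lay between -0.49 and -0.13. For control shRNA against vehicle, the direction in CMPK2 and the lack of a call in RSAD2 and OAS2 therefore belong to the probe set used.

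Genes upstream of the list were described from lists of the pathway. The counts from these short lists stand beside the shares of all genes that passed. With the control shRNA against vehicle 11.6% were higher and 10.6% lower, and between the hairpins 15.9% and 19%. With AZ628 the shares were 23.4% and 21.1% in WiDr and 22.5% and 21% in HT29. Several of the counts lie near these shares. Of the interferon genes themselves 9 of 12 were measured, without IFNA1, IFNL2 and IFNL3. Of the 9, 0 were higher and 2 lower with the control shRNA than with vehicle. The 2 were IFNE at -0.56 and IFNA8 at -0.20. IFNE did not pass without vehicle replicate 1 (-0.57), 2 (-0.60) or 3 (-0.50) or control shRNA replicate 3 (-0.39). IFNA8 did not pass without vehicle replicate 2 (-0.14) or 3 (-0.19) or control shRNA replicate 1 (-0.18), 2 (-0.21) or 3 (-0.20), and neither passed after quantile normalization (-0.47 and -0.14). IFNB1, interferon beta, read 3.5, 3.65 and 3.42 with vehicle and 3.25, 3.5 and 3.40 with the control shRNA, overlapping groups with a difference of -0.14 ± 0.08 (adjusted p = 0.248). These signals are nearly as low as the group means of the leukocyte marker PTPRC (3.10 to 3.31). The lack of a call there does not show that interferon beta was unchanged. IFNE, an interferon of epithelia, was higher by 1.12 with the IKKα shRNA than with the control shRNA, and by 0.92 with AZ628 in HT29.

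Of the 6 receptor chains, 4 were higher with the control shRNA than with vehicle. They included IFNLR1, the chain specific to interferon lambda, at 0.64, and IFNAR2, of the type I receptor, at 0.60 (0.24, not passing, without probe sets that bind several transcripts). IFNAR1, the other type I chain, gave 0.26, which did not pass without any 1 of the 6 arrays (0.23 to 0.29) and was -0.08 with the probe set of largest variance. With AZ628, IL10RB, the other chain of the interferon lambda receptor, was higher by 1.35 in WiDr and 0.71 in HT29. Of 9 measured signalling genes, 6 rose with AZ628 in WiDr and 5 in HT29, with 0 lower in either. JAK1 was among them, at 1.16 and 0.73. With the control shRNA 1 was higher and 1 lower.

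Of 14 genes that sense nucleic acids or relay that signal, 6 were higher and 0 lower with the control shRNA than with vehicle. RIGI, which detects short RNA with a triphosphate end, gave 0.49, and TLR3, the endosomal receptor of double-stranded RNA, 0.58. Between the hairpins 4 were higher and 2 lower, with RIGI at -0.48. With AZ628, 3 were higher and 5 lower in WiDr, and 5 and 3 in HT29. TLR3 was higher by 1.24 and 0.38, a difference between the lines of -0.86 ± 0.13 (adjusted p = 0.000258), and CGAS, the sensor of cytosolic DNA, gave -1.26 and -1.20.

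Of 13 genes typical of interferon gamma, 6 were higher and 1 lower with the control shRNA, and 4 were higher with AZ628 in each line, with 2 lower in WiDr and 1 in HT29. GBP2, a guanylate-binding protein, had large rises with AZ628, from 5.91, 5.47 and 5.53 to 8.59, 8.53 and 8.42 in WiDr and from 6.86, 6.69 and 6.86 to 9.20, 8.86 and 9.16 in HT29. These were 2.88 ± 0.11 and 2.27 ± 0.11 on the log2 scale. With the hairpins GBP2 read 6.32, 6.30 and 6.33 for the control and 4.66, 4.80 and 4.93 for IKKα, with differences of -1.52 and -0.84. CXCL11, a chemokine, had the middle position of many members, with 1.87 for control shRNA against vehicle, -0.82 for IKKα shRNA against control shRNA and 1.05 for IKKα shRNA against vehicle. GBP1 did not, with 1.08 against the control shRNA and 1.64 against vehicle.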

How the data were processed

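The submitters deposited 1 table of log2 signals for 18 Affymetrix arrays (100 ng of total RNA each), made with RMA and limma in R 3.0.2 per the submitters' processing notes; the values are the authors' deposited log2 values and were not normalized again. Of 49395 probe sets, 102 were controls, 44994 named 1 gene, 1832 several and 2569 none. For each of the 18132 genes the probe set with the highest mean was kept. Arrays were grouped by their labels, and the HT28 of the series' design text was read as HT29. A 6-group model was fitted with limma 3.58.1 in R 4.3.3 (12 residual degrees of freedom, no covariate, no filter), with Benjamini-Hochberg adjustment over all genes and a threshold of 0.05. Named are, per comparison, the 10 members with the largest rise and the 10 with the largest fall among those that passed, other members by value or range, and up to 8 passing and 4 other genes of the pathway lists, picked after their values were seen. The members and lists were chosen with earlier results of these data known. Promoters came from RefSeq's table and were searched with Python 3.11.15. The script was tested on simulated data. The number of arrays limits the precision. Alternatives were other probe-set rules, scaling, filters, a 2-fold minimum, a replicate block and leaving out each array.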

Additional observations from a re-analysis of the deposited data

Results flagged for a closer look

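The AZ628 effect, HT29 minus WiDr, differed between the lines by the interaction test of limma over all genes for 10 members: IFIH1 (-0.83, adjusted p = 0.000669), OAS1 (-0.68, adjusted p = 0.00109), IFIT1 (0.65, adjusted p = 0.00405), IFI35 (-0.63, adjusted p = 0.000985), MX1 (-0.62, adjusted p = 0.0375), OASL (0.55, adjusted p = 0.00121), SP110 (-0.54, adjusted p = 0.000975), SAMD9 (-0.45, adjusted p = 0.0181), IRF7 (-0.34, adjusted p = 0.0389) and PARP9 (-0.31, adjusted p = 0.035). All values are log2. In OASL the 2 lines moved in opposite directions, and each move passed on its own. Groups of 3 arrays are too small for a test of single arrays that lie apart.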

How the results depend on the processing

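Of 344 pairs of member and comparison, 217 passed. The 2-fold minimum alone ended 147 of these calls. The other 70 passed with the same sign under every setting that kept the gene. The filters on dim genes and on probe sets that bind several transcripts left some members out. With 1 array left out, the number of members that passed ranged from 27 to 28 for AZ628 in WiDr, 23 to 26 for AZ628 in HT29, 26 to 28 for IKKα against control shRNA, 26 to 28 for IKKα shRNA against vehicle, 32 to 35 for control shRNA against vehicle, 26 to 30 for HT29 against WiDr, 29 to 33 for AZ628 against control shRNA and 6 to 10 for the difference between the lines. With a 2-fold minimum the counts in that order were 6, 3, 13, 7, 19, 9, 13 and 0; for that 0, limma's test at the usual threshold called 10. Replicate numbers did not pair the arrays (correlations of deviations -0.23 to 0.25), and the replicate block gave 29, 24, 27, 27, 36, 28, 34 and 9. Centring on housekeeping genes gave 40, 38, 35, 33, 34, 30, 36 and 11, beside 86.5%, 75.9%, 57.4%, 83.3%, 26.4%, 42.2%, 90.6% and 11.5% of all genes. Values changed sign under 4 settings, counting pairs that passed in the main fit, under the setting or in both. Some of those named here, such as DDX60 and IFIT5 for AZ628 in WiDr, had therefore not passed in the main fit. Averaged over a gene's probe sets these were, for IKKα against control shRNA, CMPK2 (-0.67) and XAF1 (-0.18), for IKKα shRNA against vehicle IFI44 (0.065) and PLSCR1 (0.30), for control shRNA against vehicle CMPK2 (0.53), and for AZ628 against control shRNA CMPK2 (-0.63), PARP14 (-0.094) and XAF1 (-0.052). Without probe sets that bind several transcripts, XAF1 gave -0.36 and -0.20 in the first and last of these, and OAS2 -0.49 for HT29 against WiDr. With the probe set of largest variance, IKKα against control shRNA gave CMPK2 -2.24, PLSCR1 1.01 and XAF1 -0.29, IKKα shRNA against vehicle IFI44 0.15 and PLSCR1 1.14, control shRNA against vehicle CMPK2 2.09, XAF1 0.30 and the receptor gene IFNAR1 -0.081, HT29 against WiDr OAS2 -0.49, and AZ628 against control shRNA CMPK2 -2.20 and XAF1 -0.053. Centred on housekeeping genes, AZ628 in WiDr gave CMPK2 0.35, DDX60 0.30, IFIT5 0.23, OASL 0.12 and RSAD2 0.29, AZ628 in HT29 IFIT5 0.067, OAS2 0.29, RSAD2 0.28 and SAMD9L 0.31, IKKα against control shRNA IFI35 -0.23, IRF7 -0.21 and LGALS3BP -0.24, IKKα shRNA against vehicle IFIH1 -0.043, IRF7 -0.064, OASL -0.33 and RSAD2 -0.30, and AZ628 against control shRNA BST2 0.053, IFI44L 0.47, IFIH1 0.24, IFIT1 0.38, IRF9 0.42, ISG15 0.34, LGALS3BP 0.023, OAS2 0.49, PARP9 0.45 and RSAD2 0.18. The causes were not tested. A probe set near the lower end of the signal range cannot show a fall.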
